A study of Mus musculus with 24 samples.

Results

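The enzymes and cofactors that add and remove DNA methylation were followed at the RNA level through an endoderm differentiation of mouse embryonic stem cells. The 8 genes, taken by name, were the maintenance pair Dnmt1 and Uhrf1, the de novo group Dnmt3a, Dnmt3b and Dnmt3l, and the oxidases Tet1, Tet2 and Tet3, out of 55401 entries in the deposited table of read counts. All 8 were among the 17144 genes that passed a filter on low counts. CJ9 embryonic stem cells in which Setd3 had been knocked out with CRISPR-Cas9 were compared with wild-type CJ9 cells, in a study that asked about Wnt signalling in endoderm differentiation. Setd3 encodes an actin histidine methyltransferase. Both genotypes were sampled at days 0, 2, 3 and 4 of differentiation, with 3 polyadenylated RNA libraries in each of the 8 groups. Before day 0 both grew with LIF on a feeder layer of inactivated mouse embryonic fibroblasts. They were then moved, away from the fibroblasts, into serum-free medium for 2 days, and on day 2 were passaged as single cells into the same medium with Activin A, so days 3 and 4 fall under Activin A. Whether the cells of day 2 were sampled before it was added is not stated in the labels. A single knock-out line was used. Separate cultures behind the libraries of a group are not stated in the labels, so the p-values measure the spread between these libraries, which may be technical.

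In mammals, methyl groups on the cytosine of CpG sites are copied to the new strand after replication by the methyltransferase DNMT1, which UHRF1 brings to half-methylated sites. New sites are methylated by DNMT3A and DNMT3B, and DNMT3L, which has no catalytic activity of its own, acts as their cofactor. TET1, TET2 and TET3 oxidise methylcytosine, the first step of active demethylation. Naive mouse embryonic stem cells are known for high Tet1 and Tet2. Cells that leave this state for the formative epiblast are known for a rise of Dnmt3a and Dnmt3b and a gain of methylation. The files hold RNA counts only, so methylation itself was not measured.

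The depth of a library, its summed gene count, lay between 18531390 and 24244958. Levels below are CPM, counts scaled to library size with TMM factors. Differences are log2 fold changes from edgeR's quasi-likelihood test over all 8 groups, and their ± is the size divided by the root of F. A gene was called when its Benjamini-Hochberg adjusted p over all tested genes was below 0.05, and 14 comparisons were made. Setd3 was lower in the 3 knock-out libraries than in the 3 wild-type libraries at every day. It averaged 29.9 ± 1.01 CPM in the knock-out and 124 ± 3.71 CPM in the wild-type at day 4 (SD, n = 3 each; log2 fold change -2.05, adjusted p = 6.22e-18). Of 6 markers of pluripotent cells 5 were measurable, while Sox2 was listed at 0 in all 24 libraries. Summed, they reached 2491, 2624 and 2698 CPM in the knock-out libraries of day 0 and 2507, 2517 and 2508 CPM in those of the wild-type. At day 2 they summed to 589 to 635 CPM in the knock-out and 376 to 419 CPM in the wild-type. At day 3 the knock-out had the lower sums, 690.3 to 701 CPM against 779.5 to 847 CPM in the wild-type. Nanog (198 against 379 CPM) and Klf4 (1.75 against 2.45 CPM) had the lower knock-out means on that day. Pou5f1 (458 against 419 CPM), Zfp42 (25.99 against 9.44 CPM) and Esrrb (10.5 against 2.065 CPM) had higher knock-out means. At day 4 the knock-out had the higher sums, 706 to 750.5 CPM against 188 to 308 CPM in the wild-type. The 5 definitive endoderm markers summed to 5.71 to 7.85 CPM in the knock-out and 166 to 466 CPM in the wild-type at day 3. They reached 67.6 to 168 CPM in the knock-out libraries of day 4 and 1492 to 1694 CPM in the wild-type ones. The 6 mesoderm markers summed to 1.09 to 1.80 in the knock-out and 67.5 to 139 CPM in the wild-type, with 3 and 0 of the mesoderm markers at 0. The 6 markers of extraembryonic endoderm summed to 0.0476 to 0.318 in the knock-out and 26.7 to 61.7 CPM in the wild-type, with 3 and 0 of them at 0. In the wild-type Hnf4a alone averaged 39.4 CPM of a mean sum of 43.8 CPM. The other markers averaged 2.68 (Apoa1), 1.18 (Amn), 0.346 (Ttr), 0.124 (Sox7) and 0.0328 CPM (Afp) there. Fewer cells of a type and less RNA per cell cannot be told apart in such bulk samples, and the part of these marker differences in the results was not tested.

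The 4 genes with the widest range over the 8 groups were Dnmt3l, Tet2, Dnmt3b and Tet1. The 250 bases before a RefSeq start of each are shown because these genes changed most and because CpG content differs between the windows. RefSeq windows on GRCm38.p6 matched all 8 genes, with 15 starts in all. CpG sites are in capitals, and each window is read 5′ to 3′ on the strand of its gene.
Dnmt3l, chr10:78042037-78042286, plus strand: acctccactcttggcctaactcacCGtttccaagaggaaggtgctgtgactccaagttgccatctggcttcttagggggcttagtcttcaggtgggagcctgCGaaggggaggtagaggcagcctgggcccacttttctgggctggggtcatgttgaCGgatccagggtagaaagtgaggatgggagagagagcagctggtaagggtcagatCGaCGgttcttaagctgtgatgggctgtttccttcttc
Tet2, chr3:133544391-133544640, minus strand: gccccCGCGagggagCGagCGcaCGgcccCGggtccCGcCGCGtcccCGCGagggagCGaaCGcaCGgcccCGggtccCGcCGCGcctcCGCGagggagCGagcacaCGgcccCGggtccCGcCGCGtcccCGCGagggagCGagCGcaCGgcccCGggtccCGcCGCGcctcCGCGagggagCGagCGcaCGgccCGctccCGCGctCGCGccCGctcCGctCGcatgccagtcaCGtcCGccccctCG
Dnmt3b, chr2:153649199-153649448, plus strand: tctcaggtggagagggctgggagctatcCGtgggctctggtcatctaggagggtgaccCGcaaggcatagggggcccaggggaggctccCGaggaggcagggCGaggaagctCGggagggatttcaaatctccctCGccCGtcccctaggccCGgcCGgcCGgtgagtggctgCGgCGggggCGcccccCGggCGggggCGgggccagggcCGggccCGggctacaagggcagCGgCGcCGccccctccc
Tet1, chr10:62887325-62887574, minus strand: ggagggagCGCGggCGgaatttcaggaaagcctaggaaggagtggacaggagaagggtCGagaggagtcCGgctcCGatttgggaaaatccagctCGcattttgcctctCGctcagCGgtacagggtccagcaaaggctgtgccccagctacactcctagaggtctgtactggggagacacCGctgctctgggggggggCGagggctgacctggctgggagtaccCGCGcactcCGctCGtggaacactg

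The window of Dnmt3l, the first of 3 RefSeq starts, held 5 CpG sites, and those of its other starts 4 and 3, below the median of 6 over 32851 windows of the same length. The window of Tet2 held 51, that of Dnmt3b 21 and that of Tet1 15, against an upper quartile of 16. Among the other members the count ranged between 2 at the first Dnmt1 start and 40 at the second Dnmt3a start. Both members of the maintenance pair had a start with the E2F motif TTTCGCGC on either strand, the third start of Dnmt1 and the second of Uhrf1, a motif held by 0.256% of all windows. The TCF/LEF motif CTTTGAT, held by 3.21% of windows on either strand, was in none of the 15. The Tet1 start lies 21672 bases inside the GENCODE M21 gene, and gene counts do not show which start was used.

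The genes differed in their course over the 4 days. Dnmt3l and Tet1 were highest at day 0 and lowest at day 4 in both genotypes, Tet2 was highest at day 0 and lay far lower later, Dnmt3a and Dnmt3b had their highest level at day 2, and Tet3 was lowest at day 0. Dnmt1 and Uhrf1 varied least, by 1.39-fold and 1.74-fold between the highest and lowest of the 8 group means. The same ratio was 3.62 for Dnmt3a, 5.64 for Tet3, 6.77 for Tet1, 12.1 for Dnmt3b, 50.3 for Tet2 and 1025 for Dnmt3l. Between genotypes, 2 of 8 members were called at day 0, where 21.1% of tested genes (10.6% higher and 10.5% lower) were. At day 2 the count was 5 of 8, all higher in the knock-out, against 32.0% of tested genes (16.2% higher and 15.7% lower). At day 3 it was 7 of 8, 6 higher and 1 lower, against 41.2% of tested genes (20.8% higher and 20.5% lower). Day 4 had the same counts, against 54.0% of tested genes (26.3% higher and 27.6% lower).

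**Figure D1:**
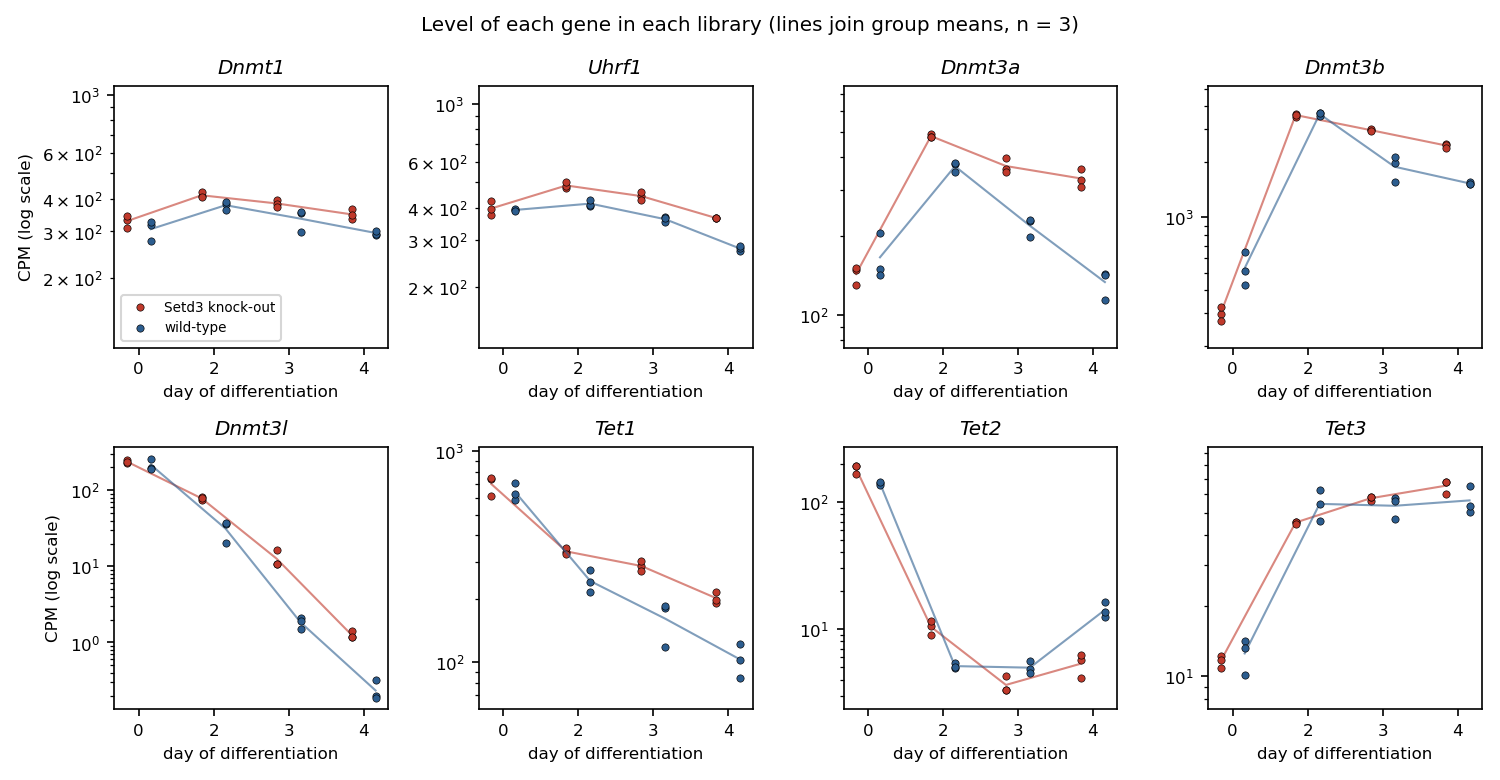
CPM of the 8 genes in each library on log axes, by day of differentiation (days drawn at equal distances), with knock-out points in red left of wild-type points in blue, and lines through the means of 3 libraries. Dnmt3a, Dnmt3b, Dnmt3l and Tet1 lie higher in the knock-out at days 3 and 4, and Tet2 lies lower there at day 4.

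The maintenance genes were slightly higher in the knock-out from day 2 or 3 on. Uhrf1 (ENSMUSG00000001228, chromosome 17, 56303321 to 56323486, plus strand) encodes the protein that recognises half-methylated CpG sites. It was at 375, 394 and 424 CPM in the 3 knock-out libraries of day 0 and at 391, 396 and 390.1 CPM in the wild-type ones, which overlapped (0.02 ± 0.04, adjusted p = 0.795). At day 2 the knock-out had 476, 483 and 501 CPM against 407, 409 and 428 CPM in the wild-type. From this day on the groups were apart, with 442, 459 and 429 CPM in the knock-out and 353, 368 and 364 CPM in the wild-type at day 3. The log2 fold change was 0.23 ± 0.04 at day 2, with an adjusted p = 0.000151. It came to 0.29 ± 0.04, adjusted p = 3.95e-06, on the next day. For the last day it was 0.39 ± 0.04, adjusted p = 2.45e-08. There Uhrf1 was at 366, 364 and 366 CPM in the knock-out and 272, 279.6 and 286 CPM in the wild-type.

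Dnmt1 (ENSMUSG00000004099, chromosome 9, 20907209 to 20959888, minus strand), the maintenance methyltransferase itself, had 366, 334 and 346 CPM in the knock-out libraries of day 4 and 292, 294 and 302 CPM in the wild-type ones (0.24 ± 0.06, adjusted p = 0.0024). All 3 knock-out libraries were above all 3 wild-type libraries on that day and at days 2 and 3. At day 3 it stood at 397, 382 and 373 CPM in the knock-out against 298, 352 and 357 CPM in the wild-type (0.19 ± 0.06, adjusted p = 0.0147). That call was lost without wild-type replicate 1, the lowest library (0.12, adjusted p = 0.142), and without knock-out replicate 1 (0.17, adjusted p = 0.0643). Day 2 had 409, 423 and 406 CPM in the knock-out and 383, 362 and 389 CPM in the wild-type, a difference that did not pass (0.13 ± 0.06, adjusted p = 0.128). Nor did that of day 0, with 309, 332 and 343 CPM in the knock-out and 276, 317 and 326 CPM in the wild-type, which overlapped (0.10 ± 0.06, adjusted p = 0.273).

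The de novo methyltransferases rose over the first 2 days in both genotypes and were higher in the knock-out at days 3 and 4. Dnmt3b (ENSMUSG00000027478, chromosome 2, 153649450 to 153687730, plus strand) encodes a de novo methyltransferase of the early embryo. Its day 0 level was 299, 325 and 274 CPM in the knock-out libraries, against 649.5, 507 and 427 CPM in the wild-type ones (-0.82 ± 0.11, adjusted p = 4.51e-05), with no overlap. Fibroblast transcripts varied at day 0, the 19 feeder markers, none of them at 0, summing to 3574, 2554 and 1354 CPM in the knock-out libraries and 1390.4, 2459 and 2083 CPM in the wild-type ones. The 2 libraries with the lowest feeder sums were knock-out replicate 3 and wild-type replicate 1. They had the lowest knock-out and the highest wild-type Dnmt3b of that day, 274 and 649.5 CPM. The part of feeder RNA in the genotype difference was not tested. At day 2 the genotypes overlapped, at 3653, 3512 and 3598 CPM in the knock-out and 3685, 3533 and 3686 CPM in the wild-type (-0.02 ± 0.11, adjusted p = 0.92). After Activin A the knock-out was the higher one. Day 3 gave 2993, 2998 and 2924 CPM in the knock-out against 1546, 1971 and 2120.1 CPM in the wild-type (0.66 ± 0.11, adjusted p = 0.000115). In the last libraries it was at 2512, 2480.2 and 2370.1 CPM in the knock-out against 1504, 1554 and 1517 CPM in the wild-type (0.69 ± 0.11, adjusted p = 4.15e-05). The direction of the genotype difference was thus opposite at day 0 and at days 3 and 4.

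Dnmt3a (ENSMUSG00000020661, chromosome 12, 3806007 to 3914443, plus strand), the second de novo methyltransferase, did not differ past the threshold at day 0, with 130.1, 149 and 151 CPM in the knock-out and 206, 149.8 and 142 CPM in the wild-type (-0.21 ± 0.11, adjusted p = 0.209). At day 2 it reached 492, 477 and 479 CPM in the knock-out and 352, 376 and 382 CPM in the wild-type (0.38 ± 0.11, adjusted p = 0.0139). This call was lost without wild-type replicate 1 (0.35, adjusted p = 0.0579). The gap between the genotypes had the same sign on the later days and no overlap. Day 3 gave 363, 398 and 351 CPM in the knock-out against 198, 228 and 231 CPM in the wild-type (0.76 ± 0.11, adjusted p = 2.54e-05). Day 4 gave 329, 361 and 307 CPM in the knock-out against 114, 144 and 143 CPM in the wild-type (1.32 ± 0.12, adjusted p = 1.19e-08), a 2.49-fold higher level in the knock-out. The step between these days differed between genotypes (0.56 ± 0.16, adjusted p = 0.0157 for the knock-out step minus the wild-type step).

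Dnmt3l (ENSMUSG00000000730, chromosome 10, 78041947 to 78063622, plus strand), the cofactor without catalytic activity, had the widest course. In the knock-out it was at 230.3, 249.7 and 239 CPM at day 0, 75.1, 80.7 and 79.4 CPM at day 2, 10.8, 16.4 and 10.7 CPM at day 3 and 1.18, 1.43 and 1.17 CPM at day 4. In the wild-type it was at 262, 199.6 and 192 CPM at day 0, 20.5, 36.5 and 37 CPM at day 2, 1.51, 2.08 and 1.92 CPM at day 3 and 0.197, 0.186 and 0.318 CPM at day 4. The groups overlapped at day 0 alone, and at each later day every knock-out library was above every wild-type library. The log2 fold change missed the threshold at day 0 (0.14 ± 0.16, adjusted p = 0.595). It was called on each later day, at 1.33 ± 0.17, adjusted p = 1.52e-05, for day 2, then 2.78 ± 0.28, adjusted p = 2.7e-07, for day 3. Day 4 gave 2.39 ± 0.65, adjusted p = 0.00462. Dnmt3l was thus 2.51-fold, 6.88-fold and 5.24-fold higher in the knock-out on the last 3 of them. Counts at day 4 were small, 26, 30 and 24 in the knock-out and 4, 4 and 7 in the wild-type, and the error of that fold is wide. Dnmt3l shares 67 exon bases with Aire, a gene on the opposite strand, and the sources used here do not state whether counting used strand.

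Of the oxidases, Tet1 was higher in the knock-out after day 0, Tet2 crossed over, and Tet3 did not differ past the threshold. Tet1 (ENSMUSG00000047146, chromosome 10, 62804570 to 62908996, minus strand), known as the main TET gene of embryonic stem cells, was at 614, 738 and 743 CPM in the knock-out and 585, 627 and 705 CPM in the wild-type at day 0 (0.13 ± 0.15, adjusted p = 0.592). At day 3 the knock-out had 284, 303 and 270.1 CPM against 118, 180.3 and 185 CPM in the wild-type (0.83 ± 0.15, adjusted p = 0.00025). On day 4 it had 216, 191 and 196 CPM in the knock-out against 84.1, 102 and 123 CPM in the wild-type (0.96 ± 0.15, adjusted p = 3.33e-05). Neither day had any overlap. The knock-out level at day 4 was 1.95 times that of the wild-type. At day 2 the libraries were apart too, at 333, 347 and 325 CPM in the knock-out against 239.8, 214 and 274 CPM in the wild-type (0.47 ± 0.15, adjusted p = 0.024). That call did not hold without knock-out replicate 1 (0.47, adjusted p = 0.0504) or 2 (0.44, adjusted p = 0.0685), nor without wild-type replicate 1 (0.46, adjusted p = 0.0662) or 2 (0.39, adjusted p = 0.102).

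Tet2 (ENSMUSG00000040943, chromosome 3, 133463679 to 133545139, minus strand) is, with Tet1, an oxidase of naive cells. The 3 knock-out libraries of day 0 were above the wild-type ones, with 167, 191 and 191 CPM against 142, 135 and 142 CPM in the wild-type (0.39 ± 0.09, adjusted p = 0.00458). So were those of day 2, with 10.7, 11.6 and 8.98 CPM in the knock-out against 4.94, 5.38 and 5.03 CPM in the wild-type (1.03 ± 0.14, adjusted p = 3.65e-06). At day 3 it was lower, at 3.34, 4.28 and 3.29 CPM in the knock-out against 4.81, 5.59 and 4.51 CPM in the wild-type (-0.45 ± 0.15, adjusted p = 0.0223). This call failed without knock-out replicate 1 (-0.39, adjusted p = 0.0875) or 3 (-0.38, adjusted p = 0.0903) and without wild-type replicate 2 (-0.36, adjusted p = 0.103). By day 4 the knock-out had 5.72, 4.09 and 6.23 CPM against 16.3, 12.4 and 13.7 CPM in the wild-type (-1.40 ± 0.13, adjusted p = 2.03e-09). There was no overlap, and the level was 2.64-fold lower. Tet2 and Dnmt3b were thus the members called in opposite directions on different days, and they crossed in opposite senses.

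Tet3 (ENSMUSG00000034832, chromosome 6, 83362373 to 83459084, minus strand), known as the oxidase of the zygote and of differentiated cells, was at 12.2, 11.7 and 10.9 CPM in the knock-out and 10.1, 14.1 and 13.2 CPM in the wild-type at day 0. At day 3 it was at 56.3, 58.5 and 58.5 CPM in the knock-out and 46.9, 57.8 and 56.1 CPM in the wild-type, and at day 4 at 68, 59.9 and 68 CPM in the knock-out and 50.5, 53.6 and 65.5 CPM in the wild-type. The genotypes overlapped at days 0, 3 and 4, and the log2 fold changes of the 4 days lay between -0.27 ± 0.11 (day 2, adjusted p = 0.0706) and 0.21 ± 0.11 (day 4, adjusted p = 0.112). At day 2 the knock-out libraries (45.8, 45.6 and 45 CPM) were below the wild-type ones (62.9, 46.2 and 54.8 CPM). Without wild-type replicate 2 that difference was called (-0.37, adjusted p = 0.017). At day 4 it was called without wild-type replicate 3 (0.33, adjusted p = 0.0142). An interval of 1.96 errors around the day 4 difference ran between -0.01 and 0.42.

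**Figure D2:**
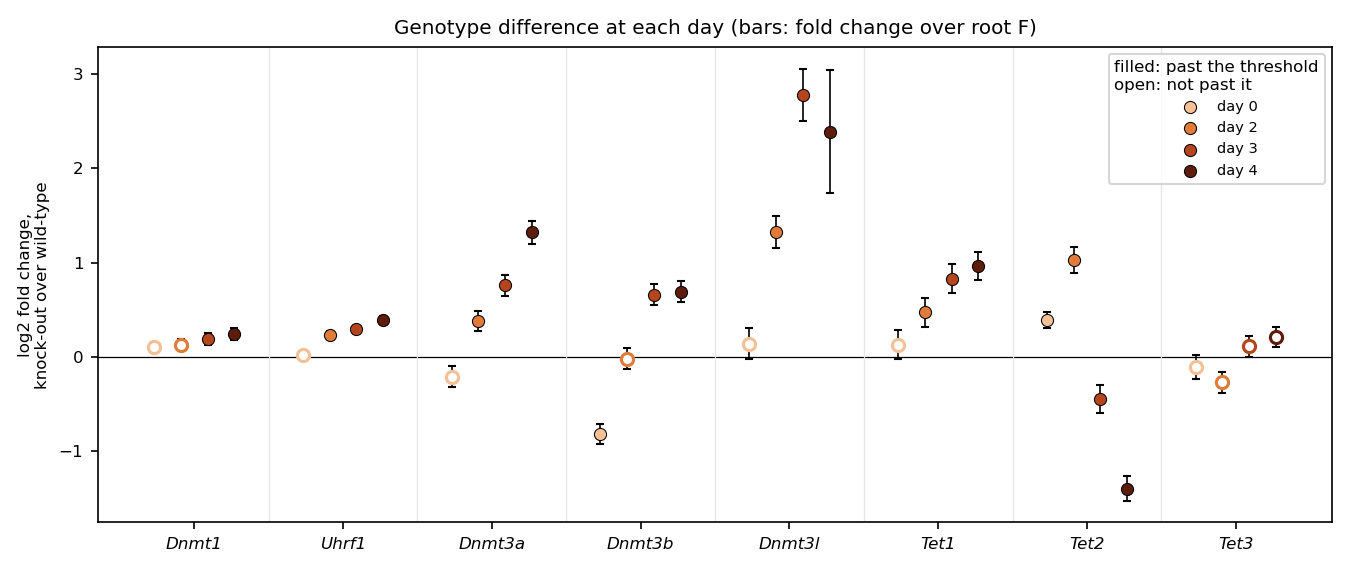
Log2 fold change of each gene, knock-out over wild-type, at days 0, 2, 3 and 4 in order within a gene, with bars for its error and filled points for adjusted p below 0.05. Differences of Dnmt3a, Dnmt3l, Tet1 and Uhrf1 lie above 0 at days 2 to 4, and those of Tet2 lie above 0 at days 0 and 2 and below 0 at days 3 and 4.

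As a mean over the 4 days, 5 of 8 members were higher in the knock-out and none lower, against 60.0% of tested genes (29.4% higher and 30.6% lower). They were Dnmt3l (1.66 ± 0.18, adjusted p = 2.79e-07), Tet1 (0.60 ± 0.07, adjusted p = 1.88e-06), Dnmt3a (0.56 ± 0.06, adjusted p = 6.77e-08), Uhrf1 (0.23 ± 0.02, adjusted p = 8.54e-10) and Dnmt1 (0.16 ± 0.03, adjusted p = 7.04e-05). Dnmt3b missed the threshold (0.13 ± 0.06, adjusted p = 0.0585), its days having opposite signs. It was called without knock-out day 0 replicate 3 (0.15, adjusted p = 0.0428), wild-type day 0 replicate 1 (0.17, adjusted p = 0.00149) or wild-type day 3 replicate 3 (0.15, adjusted p = 0.0236). Tet2 (-0.11 ± 0.07) and Tet3 (-0.02 ± 0.06) did not pass.

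The steps between days were also compared between the genotypes. Over the first 2 days all 8 members changed in the knock-out, 5 up and 3 down, against 60.1% of tested genes (29.5% higher and 30.6% lower). In the wild-type 7 changed, 4 up and 3 down, against 63.8% of tested genes (32.0% higher and 31.8% lower). Dnmt3b rose by 3.58 ± 0.12 in the knock-out and 2.78 ± 0.12 in the wild-type, on the log2 scale. Dnmt3a rose by 1.75 ± 0.12 in the knock-out and 1.16 ± 0.11 in the wild-type, and Tet3 by 1.97 ± 0.12 in the knock-out and 2.13 ± 0.12 in the wild-type. Tet2 fell in the knock-out (-4.13 ± 0.11) and in the wild-type (-4.77 ± 0.12), as did Dnmt3l (knock-out -1.61 ± 0.17, wild-type -2.80 ± 0.18) and Tet1 (knock-out -1.06 ± 0.15, wild-type -1.40 ± 0.15). The knock-out step minus the wild-type step was called for 5 of 8, all positive, against 7.34% of tested genes (4.27% higher and 3.07% lower). The 5 were Dnmt3b (0.80 ± 0.16, adjusted p = 0.00481), Dnmt3l (1.19 ± 0.24, adjusted p = 0.00479), Tet2 (0.64 ± 0.17, adjusted p = 0.0189), Uhrf1 (0.21 ± 0.06, adjusted p = 0.028) and Dnmt3a (0.59 ± 0.16, adjusted p = 0.0291). The calls of the last 3 did not hold in every fit that left out 1 library. That of Tet2 was lost without knock-out day 2 replicate 2 (0.55, adjusted p = 0.0674) or wild-type day 2 replicate 1 (0.61, adjusted p = 0.0627). Uhrf1 lost its call without any 1 of 6 libraries (knock-out day 0 replicates 1 and 2 and day 2 replicate 3, wild-type day 0 replicate 2 and day 2 replicates 1 and 2; 0.17 to 0.20, adjusted p = 0.0552 to adjusted p = 0.0883). Dnmt3a did so without any 1 of another 6 (knock-out day 0 replicate 1 and each of day 2, wild-type day 2 replicates 1 and 2; 0.53 to 0.61, adjusted p = 0.0522 to adjusted p = 0.0814). For Dnmt3b the positive value closed a gap, its genotype difference being -0.82 at day 0 and -0.02 at day 2.

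Between days 2 and 3, with Activin A in the medium, 6 members fell in the wild-type and none rose, against 42.4% of tested genes (21.4% higher and 21.1% lower). Dnmt3l fell most (-4.09 ± 0.26, adjusted p = 5.75e-10). It was followed by Dnmt3b (-0.95 ± 0.11, adjusted p = 1.93e-06), Dnmt3a (-0.76 ± 0.11, adjusted p = 2.65e-05) and Tet1 (-0.59 ± 0.15, adjusted p = 0.00414). Smaller falls were those of Uhrf1 (-0.20 ± 0.04) and Dnmt1 (-0.17 ± 0.06, adjusted p = 0.0294). The call of Dnmt1 was lost without wild-type day 2 replicate 1 (-0.16, adjusted p = 0.0791) or 3 (-0.15, adjusted p = 0.103) or day 3 replicate 1 (-0.09, adjusted p = 0.248). In the knock-out 4 fell and 1 rose, against 29.1% of tested genes (14.7% higher and 14.4% lower). The 4 were Dnmt3l (-2.63 ± 0.19, adjusted p = 6.33e-09), Tet2 (-1.52 ± 0.14, adjusted p = 1.11e-08), Dnmt3a (-0.38 ± 0.11, adjusted p = 0.0151) and Uhrf1 (-0.13 ± 0.04, adjusted p = 0.0158). Tet3 rose (0.34 ± 0.11, adjusted p = 0.0207). Without knock-out day 3 replicate 3 the calls of Dnmt3a (-0.34, adjusted p = 0.0656), Uhrf1 (-0.11, adjusted p = 0.093) and Tet3 (0.34, adjusted p = 0.0584) were lost. That of Dnmt3a was also lost without day 3 replicate 1 (-0.36, adjusted p = 0.0517), and that of Uhrf1 without day 2 replicate 3 (-0.11, adjusted p = 0.0807). Tet3 lost its call as well without day 3 replicate 2 or any 1 library of day 2 (0.33 to 0.35, adjusted p = 0.0509 to adjusted p = 0.0644). The step itself differed between genotypes for Dnmt3b (0.68 ± 0.16, adjusted p = 0.00832), Dnmt3l (1.46 ± 0.34, adjusted p = 0.00867) and Tet2 (-1.47 ± 0.21, adjusted p = 2.62e-05). These were 3 of 8, 2 positive and 1 negative, against 10.9% of tested genes (6.61% higher and 4.33% lower). The Dnmt3l difference was lost without wild-type day 3 replicate 1 (1.33, adjusted p = 0.0509), and that of Tet3 was called without wild-type day 2 replicate 2 (0.48, adjusted p = 0.044). For Tet2 the genotype difference went from 1.03 at day 2 to -0.45 at day 3.

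Between days 3 and 4 the wild-type had 6 members lower and 1 higher, against 45.5% of tested genes (22.4% higher and 23.1% lower). Tet2 rose (1.51 ± 0.13, adjusted p = 1.57e-09). Dnmt3l (-2.93 ± 0.60, adjusted p = 0.000576), Dnmt3a (-0.71 ± 0.11, adjusted p = 4.14e-05), Tet1 (-0.64 ± 0.15, adjusted p = 0.00212) and Uhrf1 (-0.37 ± 0.04, adjusted p = 8.53e-08) fell. Dnmt3b (-0.30 ± 0.11, adjusted p = 0.0358) and Dnmt1 (-0.18 ± 0.06, adjusted p = 0.0199) fell as well. The call of Dnmt3b was lost without any 1 of 5 libraries (day 3 replicates 2 and 3 and each of day 4; adjusted p = 0.0648 to adjusted p = 0.188). That of Dnmt1 was lost without any 1 of 4 (day 3 replicates 2 and 3, day 4 replicates 1 and 2; adjusted p = 0.0533 to adjusted p = 0.12). In the knock-out 3 fell and 1 rose, against 11.6% of tested genes (5.76% higher and 5.83% lower). Dnmt3l fell by 3.32 ± 0.30 on the log2 scale (adjusted p = 1.04e-06) and Uhrf1 by 0.28 ± 0.04 (adjusted p = 7.19e-05). The fall of Tet1 (-0.51 ± 0.15, adjusted p = 0.0351) was lost without any 1 of the 6 libraries (adjusted p = 0.057 to adjusted p = 0.129). The rise of Tet2 (0.56 ± 0.15, adjusted p = 0.017) was lost without any 1 of 4 (day 3 replicates 1 and 3, day 4 replicates 1 and 3; adjusted p = 0.0676 to adjusted p = 0.12). The step differed between genotypes for 2 of 8 members, against 23.8% of tested genes (12.6% higher and 11.2% lower). These were Dnmt3a, given above, and Tet2 (-0.95 ± 0.20, adjusted p = 0.00106). For Dnmt3l the difference was -0.39 ± 0.90 (adjusted p = 0.818).

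Levels of different genes can be compared only per length, here CPM per kilobase of all exons of the gene in GENCODE M21. On that scale Dnmt3b had the highest mean of the members in 7 of the 8 groups, Uhrf1 being higher in the knock-out at day 0. In the wild-type libraries of day 0 Dnmt3b (127.2, 99.2 and 83.6) overlapped Uhrf1 (91.8, 93.0 and 91.6). Dnmt3b was at 703 ± 13.9 in the knock-out and 712 ± 17.2 in the wild-type of day 2. The next member on that day, Uhrf1, was at 114 ± 3.09 in the knock-out and 97.4 ± 2.65 in the wild-type. At day 0 Dnmt3l stood above Dnmt3b in the knock-out (80.2 ± 3.24 against 58.6 ± 5.07) and below it in the wild-type (72.9 ± 12.7 against 103 ± 22.1). Dnmt3l per 100 of summed Dnmt3a and Dnmt3b was 119.6 ± 7.0 in the knock-out and 64.8 ± 4.44 in the wild-type at day 0. It was 3.59 ± 0.199 in the knock-out and 1.43 ± 0.441 in the wild-type at day 2. After Activin A it was 0.7 ± 0.173 in the knock-out and 0.161 ± 0.0121 in the wild-type at day 3. By day 4 it was 0.0841 ± 0.00894 in the knock-out and 0.0255 ± 0.00813 in the wild-type. The knock-out libraries were above the wild-type libraries at each of the 4 days in this ratio, which does not depend on the scaling between libraries.

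Among the Tet transcripts Tet1 led in every group, and the rest changed hands. Tet2 made up 19.1 ± 0.445% of them in the knock-out and 16.5 ± 1.30% in the wild-type at day 0, and Tet3 1.24 ± 0.189% in the knock-out and 1.48 ± 0.213% in the wild-type. By day 4 Tet3 had 22.7 ± 0.919% in the knock-out and 31.1 ± 0.874% in the wild-type, and Tet2 1.83 ± 0.327% in the knock-out and 7.88 ± 2.08% in the wild-type. Tet1 then held 75.5 ± 1.21% in the knock-out and 61 ± 2.89% in the wild-type. The 3 together were at 56.7 ± 5.52 CPM per kilobase in the knock-out and 50.4 ± 4.07 in the wild-type at day 0, and at 17.2 ± 1.09 in the knock-out and 10.9 ± 1.64 in the wild-type at day 4. Dnmt3a was a small part of the summed Dnmt3a and Dnmt3b, at 12.8 ± 1.44% in the knock-out and 8.82 ± 0.477% in the wild-type at day 0. At day 4 it was 3.99 ± 0.245% in the knock-out and 2.61 ± 0.289% in the wild-type. These values are descriptions with no test (SD, n = 3), and they rest on 1 exon length per gene, although the transcript forms in use may differ.

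**Figure D3:**
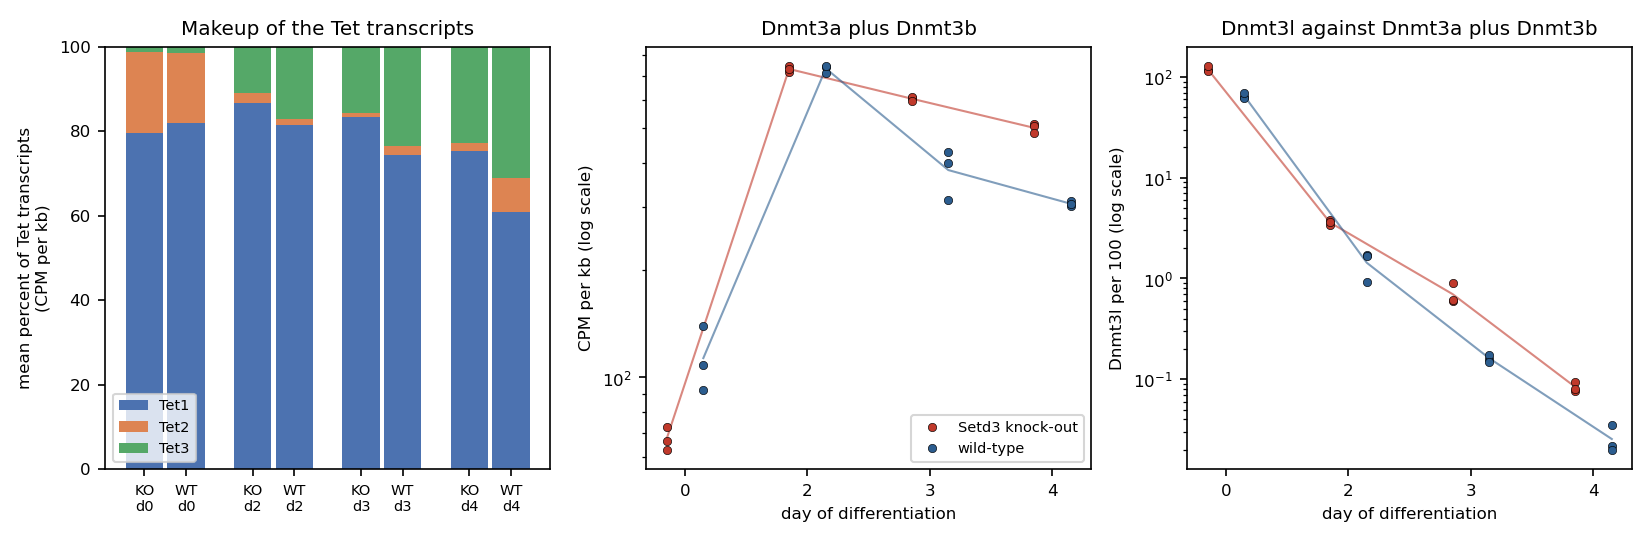
Left, mean percent of each Tet gene among the 3 in each group (CPM per kilobase, n = 3, knock-out bar left of wild-type bar at each day). Middle and right, each library's summed Dnmt3a and Dnmt3b level and its Dnmt3l per 100 of that sum, both on log axes, where the knock-out points lie above the wild-type points at days 3 and 4 in the middle panel and at all 4 days in the right one.

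Placed in order of their means, neighbouring groups of Dnmt3l were apart in all libraries except for the knock-out and wild-type at day 0, which overlapped. In this order the knock-out of each day after day 0 stood just above the wild-type of the same day, and knock-out day 3 (12.7 ± 3.27 CPM) lay between wild-type day 2 (31.3 ± 9.38 CPM) and wild-type day 3 (1.84 ± 0.293 CPM). For Dnmt3b and Dnmt3a the knock-out of day 4 (2454 ± 74.2 and 332 ± 26.7 CPM) was above the wild-type of day 3 (1879 ± 298 and 219 ± 18 CPM) without overlap. The Tet1 order was knock-out before wild-type at every day, with overlaps between the 2 genotypes of day 0, between knock-out day 3 and wild-type day 2, between wild-type day 2 and knock-out day 4, and between the wild-type of days 3 and 4. Tet2 was highest in both groups of day 0, then in wild-type day 4 (14.2 ± 1.99 CPM) and knock-out day 2 (10.4 ± 1.33 CPM). For Dnmt1, 6 of the 7 neighbouring pairs overlapped, and the highest group, knock-out day 2 (412 ± 9.16 CPM), was apart from the next. For Uhrf1 the top group was the same (487 ± 13.2 CPM) and wild-type day 4 (279 ± 6.75 CPM) lay apart at the bottom. Tet3 ran between 65.3 ± 4.68 CPM in the knock-out of day 4 and 11.6 ± 0.664 CPM in the knock-out of day 0, with both groups of day 0 apart from the 6 later ones.

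Across the 24 libraries, which share their days and genotypes, log2(CPM + 1) of Tet2 and Tet3 ran most strongly against each other among the members (Pearson's r = -0.96), and Tet2 ran against Dnmt3b (r = -0.93). Dnmt3l went with Tet1 (r = 0.93) and Dnmt3b with Tet3 (r = 0.90) and Dnmt3a (r = 0.81). Likeness to each member was measured in the same way over 8961 genes averaging 10 CPM or more. The 2 genes most like Dnmt3l were Rinl (r = 0.996) and Psma8 (r = 0.993), and those most like Tet1 were Usp7 (r = 0.978) and Morc3 (r = 0.978). Next to Tet2 stood Kifc3 (r = 0.985) and Inhbb (r = 0.983), and next to Tet3 Plxnb1 (r = 0.992) and Bcl9 (r = 0.990). For Dnmt3b they were Sall2 (r = 0.980) and Nr6a1 (r = 0.980), and for Dnmt3a Gstt2 (r = 0.979) and Pou3f1 (r = 0.978). The maintenance pair was matched by Syt9 (r = 0.974) and Them6 (r = 0.967) for Uhrf1 and Helq (r = 0.941) and Map1b (r = 0.935) for Dnmt1. Usp7, the first for Tet1, encodes a deubiquitinase known to bind DNMT1 and UHRF1, and Pou3f1, the second for Dnmt3a, a transcription factor of the formative epiblast. These correlations describe courses over 8 groups and carry no test.

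Among 10 tested genes that work with the maintenance pair or, as Dppa3, against it, 0 were higher in the knock-out and 1 lower at day 0. There 10.6% of all genes were higher and 10.5% lower. At day 2 there were 6 higher and 1 lower, at day 3 there were 6 and 2, and at day 4 there were 6 and 2. Of all genes, 16.2%, 20.8% and 26.3% were higher and 15.7%, 20.5% and 27.6% lower on those days. The 6 were not the same genes throughout, since Lig1 was called at days 2 and 4 and not at day 3, and Cdca7 at day 4 alone. The median log2 fold change of the list was 0.20 at day 4, against -0.01 over all tested genes. At day 4 the DNA ligase gene Lig1 (0.70 ± 0.05), Cdca7, whose protein works with the remodeller HELLS (1.22 ± 0.09), the clamp gene Pcna (0.51 ± 0.04) and Hells itself (0.58 ± 0.06) were higher in the knock-out than in the wild-type. Cdca7 was at 248 ± 3.71 CPM in the knock-out and 106 ± 20.02 CPM in the wild-type (SD, n = 3 each). Its relative Cdca7l went the other way at each of the 4 days (-1.08 ± 0.08, -1.08 ± 0.08, -1.17 ± 0.08 and -0.45 ± 0.08). Dppa3, whose protein keeps UHRF1 off chromatin, was higher at day 2 (0.79 ± 0.29) and day 3 (1.62 ± 0.44), at 1.89 ± 0.817 CPM in the knock-out and 0.613 ± 0.327 CPM in the wild-type on the later of them. At day 4 its difference was -1.81 ± 1.06 and did not pass (adjusted p = 0.157), at 0.0623 ± 0.0246 CPM in the knock-out and 0.234 ± 0.0418 CPM in the wild-type. Lig1, Pcna and Hells are also genes of replicating cells, and the part of the cell cycle was not tested.

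Among 11 regulators and guides of de novo methylation the directions were mixed, with 1 higher and 4 lower at day 0 (Dnmt3c, on single counts, among the 4), 5 and 2 at day 2, 4 and 2 at day 3, and 3 and 1 at day 4. Of all genes 10.6%, 16.2%, 20.8% and 26.3% were higher and 10.5%, 15.7%, 20.5% and 27.6% lower on these days, so the day 4 count of higher genes was near the share over all genes. Prdm14, a repressor of Dnmt3b and Dnmt3l in naive cells, was higher in knock-out cells of day 2 (1.96 ± 0.45), which had 1.66 ± 0.491 CPM against 0.426 ± 0.293 CPM in the wild-type. Zfp57, which guards methylation at imprinted loci, was lower at day 4 (-1.16 ± 0.09), and Trim28, its corepressor, higher (0.64 ± 0.06). The H3K36 methyltransferase gene Nsd2, whose mark guides DNMT3A, was lower at day 2 (-0.36 ± 0.07) and its relative Nsd1 higher (0.24 ± 0.04). Of 13 genes of the methyl donor cycle, 9 were higher and 2 lower at day 4 (median 0.26), where 26.3% of genes were higher and 27.6% lower. Among them were the folate enzymes Shmt1 (0.65 ± 0.05) and Mthfd1 (0.51 ± 0.04) above. At day 3 that list had 2 higher and 2 lower, where 20.8% of genes were higher and 20.5% lower.

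Downstream of methylation and oxidation, a list of 8 genes held readers of methylated DNA and members of their families. Of these 3 were higher and 0 lower at day 0, 4 and 0 at day 2, and 3 and 0 at day 3. Of all genes 10.6%, 16.2% and 20.8% were higher and 10.5%, 15.7% and 20.5% lower on those days. At day 4 the list had 4 higher and 2 lower, where 26.3% of genes were higher and 27.6% lower. Zbtb38 (0.39 ± 0.08) and the family member Mbd3 (0.20 ± 0.05) were above and Zbtb4 (-0.98 ± 0.25) below. Of 16 tested genes of base excision and deamination 6 were higher and 6 lower on that day, against the same 26.3% and 27.6% of genes. Parp1, which marks strand breaks, was above (0.72 ± 0.05), and the deaminase family member Apobec2 (-4.76 ± 0.35) and the uracil glycosylase gene Smug1 (-0.74 ± 0.10) were below, as was the stress response gene Gadd45g (-2.04 ± 0.33). Among 9 TET partners and enzymes of 2-oxoglutarate, the substrate that TET enzymes need, 2 were higher and 4 lower, against 26.3% and 27.6% of all genes, so the share of higher genes was not above that of all genes. Ogt, whose product binds TET proteins, was lower at day 3 (-0.42 ± 0.05) and day 4 (-0.31 ± 0.05). At day 4 D2hgdh, which clears D-2-hydroxyglutarate, was lower (-1.35 ± 0.16), and Idh1 was lower (-0.53 ± 0.07) while Idh3a was higher (0.33 ± 0.05).

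Germline genes that are known to be silenced by methylation of their promoters fell during differentiation in both genotypes and stood higher in the knock-out at day 3. Of 18 such genes 16 were tested, Sycp3 and Asz1 having too few counts. In the wild-type 9 fell over the first 2 days, 14 between days 2 and 3 and 8 between days 3 and 4, and none rose. In these steps 31.8%, 21.1% and 23.1% of all genes fell. In the knock-out 6 fell and 1 rose, then 15 fell, then 11 fell, where 30.6%, 14.4% and 5.83% of all genes fell. Between genotypes 2 were higher and 2 lower at day 0, 7 higher and 0 lower at day 2, 13 higher and 0 lower at day 3, and 4 higher and 0 lower at day 4. Of all genes 10.6%, 16.2%, 20.8% and 26.3% were higher and 10.5%, 15.7%, 20.5% and 27.6% lower on these days. The counts of higher genes at days 0 and 4 were thus near the share over all genes. The list's median log2 fold change was -0.10, 0.48, 1.23 and 0.89 at the 4 days, against -0.01 over all tested genes at day 3. The day 4 median rests in part on genes near 0 counts. Dazl had 4, 5 and 8 counts in the knock-out and 2, 3 and 0 in the wild-type on that day. Mael had 2, 7 and 3 in the knock-out and 1, 2 and 0 in the wild-type.

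The strongest of these calls at day 3 were those of the meiotic cohesin gene Stag3 (1.10 ± 0.14), the synaptonemal complex gene Syce1 (1.91 ± 0.25), the germ cell helicase gene Ddx4 (1.28 ± 0.17) and Tex11 (1.70 ± 0.25). Ddx4 had 450, 440 and 378 counts in the knock-out libraries and 125, 172 and 178 in the wild-type ones. Syce1 had 49, 66 and 67 counts in the knock-out and 14, 15 and 15 in the wild-type. Tex11 had 40, 53 and 42 in the knock-out and 15, 9 and 14 in the wild-type, so the last 2 rest on low counts in the wild-type. Ddx4 was also the strongest call at day 4 (2.19 ± 0.26). The step between days 2 and 3 differed between genotypes for 6 of the 16, all positive, where 6.61% of genes were positive calls. Whether the promoters of these genes were methylated in these cells was not measured, and the filter on low counts keeps a gene that is high in any 1 group.

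**Figure D4:**
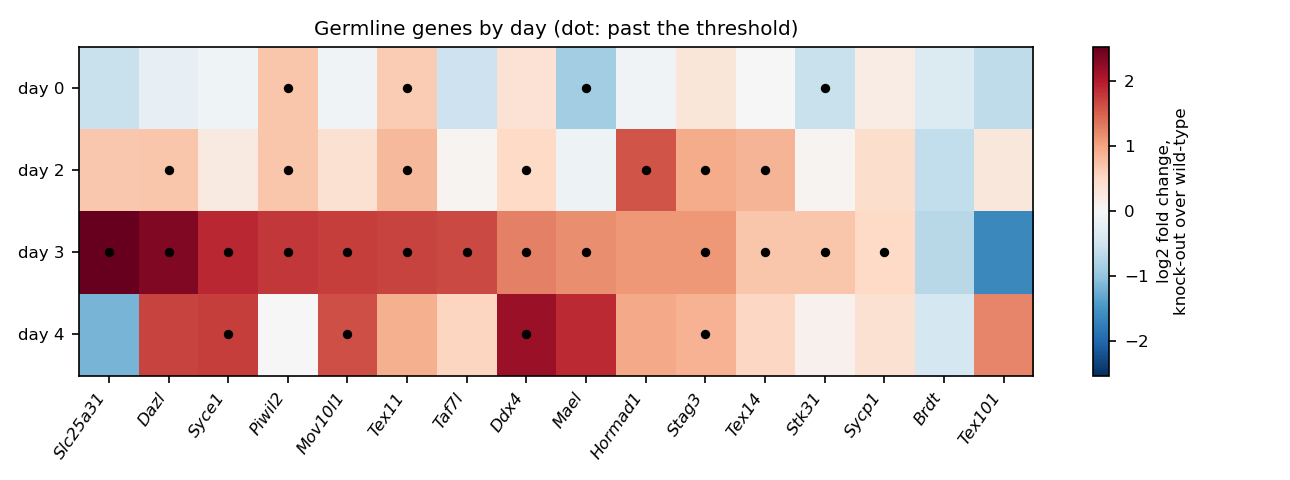
Log2 fold change, knock-out over wild-type, of the 16 tested germline genes (columns, ordered by day 3) at each day (rows), on a colour scale centred at 0, with dots for adjusted p below 0.05. Day 3 has 13 dots, all on the higher side, against 4 at day 0 on both sides.

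Tested genes within 5 Mb of each member, between 35 and 210 of them, had median log2 fold changes between -0.26 and 0.13 over the 4 days. These are medians over a region, and no gene was compared with its neighbours.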

How the data were processed

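Polyadenylated RNA of 24 libraries was used, grouped by genotype and day from the sample titles. The authors deposited whole-number read counts per gene, not normalised. The tools and build named are Trimmomatic, HISAT2 and GRCm38.p6, per the submitters' processing notes. Their versions, the counting tool and its use of strand are not stated in those sources. Close copies are uncertain, as Dnmt3b and Dnmt3c (at most 12 counts in a library). Coordinates and exon lengths came from GENCODE M21.

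Counts were tested with edgeR 4.0.16 (R 4.3.3) by its robust quasi-likelihood test, with TMM scaling, 1 mean per group and the filter on low counts by group; the common biological coefficient of variation was 0.0906. The script was tested on simulated data. Alternatives were no filter, a fit without the groups outside a comparison, a block for the replicate number, the omission of 1 library at a time, DESeq2's size factors, and DESeq2 1.42.0 itself. Replicates of a group differed by more than sampling noise (chi-square per degree of freedom 3.2 to 28.4).

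The members and gene lists were chosen with earlier results of these data known. Named genes were the members, Setd3, up to 4 list examples of lowest adjusted p, and the 2 genes most like each member. Dppa3, Cdca7l at day 4 and Dnmt3c fall outside that rule and were picked with their values known. Some list genes that the rule names are not reported here.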

Additional observations from a re-analysis of the deposited data

Results flagged for a closer look

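Steps that differed between genotypes past the threshold, in edgeR's test of the knock-out step minus the wild-type step, are given here as log2 values. Over days 0 to 2 they were those of Dnmt3l (1.19), Dnmt3b (0.80), Tet2 (0.64), Dnmt3a (0.59) and Uhrf1 (0.21), each with a more positive step in the knock-out. Over days 2 to 3 they were those of Dnmt3l (1.46), Dnmt3b (0.68) and Tet2 (-1.47). Over days 3 to 4 they were those of Dnmt3a (0.56) and Tet2 (-0.95). Tet2 was the member with differences of both signs, above 0 over days 0 to 2 and below 0 over both later steps. For Dnmt3b the value over days 0 to 2 closed a gap, its genotype difference being -0.82 at day 0 and -0.02 at day 2. Feeder marker sums also differed between these days, reaching 138 to 239 CPM in the knock-out and 130.3 to 159 CPM in the wild-type at day 2, and their part in the day 0 to 2 differences was not tested.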

How the results depend on the processing

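With the replicate number as a block (replicate block), all 112 member values kept their direction and side of the threshold, and the counts of members called between genotypes were 2, 5, 7 and 7 at the 4 days. Same-numbered knock-out and wild-type libraries of a day correlated between -0.15 and 0.042 in their deviations, and not every library correlated best with its own number. This compared the genotypes within a day alone. Whether a number links the libraries of a genotype across days was not tested. DESeq2's size factors and its Wald test both brought the mean effect of Dnmt3b past the threshold, and the Wald test also its knock-out step over days 2 to 3. Without a filter, 4 calls were lost, leaving 3 called differences between steps over days 0 to 2. Fits of only the groups compared lost 7 calls and gained 10, with 4 members called in the wild-type step over days 3 to 4, 8 and 7 in the knock-out steps over days 2 to 3 and 3 to 4, and 3 in the difference between steps over days 0 to 2. With each library left out in turn, 880 of 960 values were unchanged in direction and call. The count of members called then ran between 3 and 5 at day 2, 2 and 4 in the knock-out step over days 2 to 3, 2 and 3 in that over days 3 to 4, and 2 and 5 in the difference between steps over days 0 to 2. Signs changed only for values that were not called: Uhrf1 at day 0 (-0.03 to 0.06), the mean effect of Tet3 (-0.05 to 0.02), the wild-type steps of Tet2 (-0.13 to 0.02) and Tet3 (-0.13 to 0.09) over days 2 to 3 and of Tet3 over days 3 to 4 (-0.03 to 0.15), and the differences between steps of Dnmt1 (-0.03 to 0.11, -0.01 to 0.11 and 0.00 to 0.12) and, over days 3 to 4, Dnmt3b (-0.07 to 0.15). The causes were not tested. Depth limits Dnmt3l at day 4.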

Other observations

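In the wild-type, replicate 1 stood apart at day 3 in the same way for several members. It had the lowest level of the 3 libraries for Dnmt3b (1546, 1971 and 2120.1 CPM in replicates 1, 2 and 3), Dnmt3a (198, 228 and 231 CPM), Tet1 (118, 180.3 and 185 CPM) and Dnmt3l (1.51, 2.08 and 1.92 CPM). The 5 definitive endoderm markers summed to 466, 255 and 166 CPM in the same libraries, so replicate 1 had the highest sum. At day 4 replicate 1 again had the lowest Tet1 (84.1, 102 and 123 CPM) and Dnmt3a (114, 144 and 143 CPM) and the highest endoderm sum (1694, 1579 and 1492 CPM). At day 2 it had the lowest Dnmt3l (20.5, 36.5 and 37 CPM) and Dnmt3a (352, 376 and 382 CPM). It was not the lowest there for Tet1 (239.8, 214 and 274 CPM) or Dnmt3b (3685, 3533 and 3686 CPM). At day 0 it had the lowest Tet1 (585, 627 and 705 CPM). It then had the highest Dnmt3a (206, 149.8 and 142 CPM), Dnmt3b (649.5, 507 and 427 CPM) and Dnmt3l (262, 199.6 and 192 CPM). The knock-out libraries of day 3 lay closer together, for Dnmt3b at 2993, 2998 and 2924 CPM. Groups of 3 libraries allow no outlier test, and the labels do not say what a replicate number stands for.

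Dnmt3c, the rodent copy of Dnmt3b next to it on chromosome 2, known for its action in the male germline, had 0 counts in each knock-out library of day 0 and 5, 8 and 5 in the wild-type ones, with at most 12 in any library.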
